A study of Mus musculus with 2 samples.

Results

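Elastic fibres let a tissue stretch and recoil. They consist of a core of cross-linked elastin laid down on a scaffold of microfibrils, which are built from fibrillins and decorated by microfibril-associated proteins. Fibulins bring tropoelastin, the soluble precursor, to the scaffold, and lysyl oxidase cross-links it. Microfibrils also occur without elastin, and in both forms they hold latent TGF-beta in the matrix. Fibroblasts, smooth muscle cells and other mesenchymal cells are the main producers of these proteins, although some epithelia make fibrillins and fibulins. The genes examined were chosen by name as a set of 10: Eln, Fbn1, Fbn2, Fbln1, Fbln2, Fbln5, Mfap2, Mfap4, Mfap5 and Lox. All probes that the platform annotation assigned to these symbols were taken. They were 15 of 25697 probes and covered 9 of the 10 genes. No probe was named Fbn1, so fibrillin-1, the chief microfibril protein, was not analysed here.

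The tissue was the cervical loop (CL) of the lower incisor, the growing end of the tooth where dental epithelial stem cells reside, from mice of 10 wk on a C57BL/6 background. The 1 WT sample came from control littermates of genotype MED1 fl/fl, which per the study carried no Cre. The 1 KO sample was MED1 fl/fl K14Cre, so the floxed Med1 gene was deleted by Cre recombinase under the keratin 14 promoter, which is active in epithelia and not in mesenchyme. Both samples are labelled CL, a region that the study's methods list apart from the hair-producing tissue of the KO, although the labels' dissection note speaks of the latter. Each sample combined tissue of 3 mice, and the design text gives n = 3 per genotype, but 1 column of values per genotype was analysed and no replicate values were at hand. Every difference below therefore describes these 2 columns of values, with no test between genotypes and no error between animals, which limits the precision. Whether a column holds 1 array or a mean of several is not stated, and each is called an array below.

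RNA was hybridized to an Illumina bead array. A probe counted as detected at a detection p, its position against the negative control probes, under 0.01. Levels are log2 intensities after background correction and quantile normalization, ratios are KO minus WT on that scale, and a gene with several probes is represented by its brightest detected one. A ratio counted as different at 1.5-fold or more. On this basis 8378 named genes were detected, and 5.94% of them passed this limit, 3.02% with the KO array above WT and 2.92% with it below, while 0.621% passed 2-fold. The targeted gene, Med1, had 1 detected probe of 4, with levels of 7.28 in WT and 6.48 in KO, a 1.74-fold difference. Its ratio was -0.80, but -0.46 in the normalized values of the authors, which is under the 1.5-fold limit. Of the dental epithelial markers 8 of the 10 on the array were detected, among them Krt14, Amelx and Ambn, while the stem cell markers Sox2 and Lgr5 were not. The ratios of the pair of brightest probes of a gene, over 1791 genes with such a pair detected on both arrays, gave an SD of 0.22 log2 units per probe, used below as a guide to probe error only.

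In the CL of Med1 KO and WT mice, the detected elastic fibre and microfibril genes had ratios within the range of most genes of like brightness. Of the 9 genes on the array 6 were detected, 3 with a ratio above 0 and 3 below (1 above and 5 below with median scaling), and their median ratio was -0.01 log2 units against 0.00 for all detected genes. None of the 6 reached 1.5-fold or 2-fold, against 5.94% and 0.621% of all detected genes, and with so few genes this count is not a result about the set. The ratios ran from -0.14 for Eln to 0.32 for Lox, and their median size was 0.10 log2 units, against 0.17 over all detected genes and 0.11 over the 1807 with a mean level above 9.5, which include all detected members but Eln. Fbn2, Fbln5 and Mfap5 were not detected on either array.

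**Figure D1:**
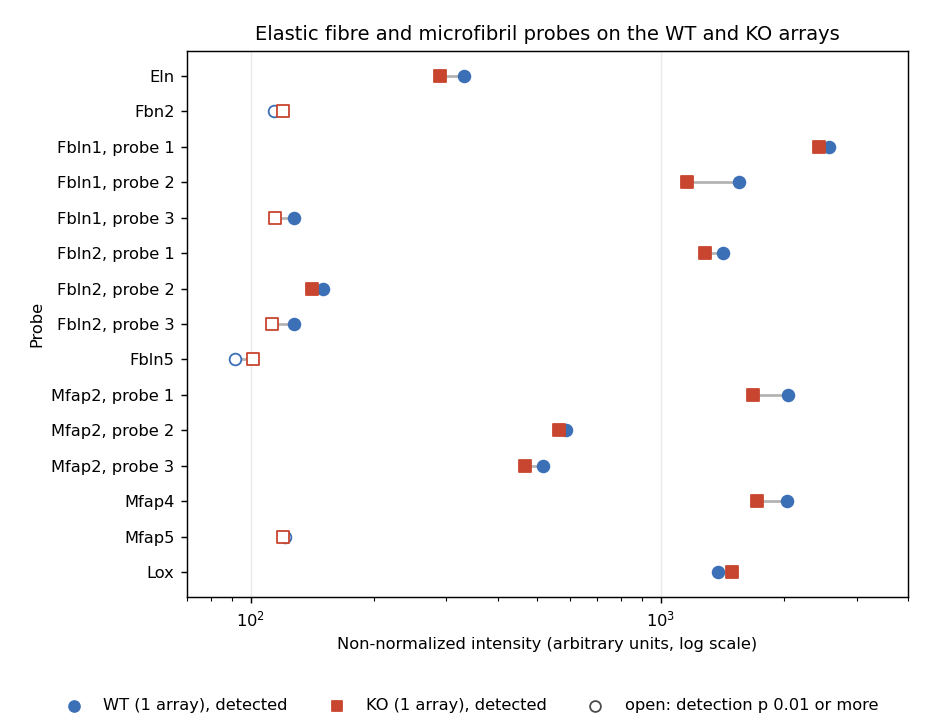
Non-normalized intensity (arbitrary units, log scale) of each of the 15 probes on the WT array (circles) and the KO array (squares). Each has 1 column of values and hence no error bars. Open symbols mark a detection p of 0.01 or more. Of the 12 detected probes 11 read lower on the KO array, and the Lox probe read higher.

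Before normalization, 11 of the 12 detected member probes read lower on the KO array and 1, that of Lox, read higher. Most other probes read lower too, namely 65.3% of all detected probes and 68.5% of those detected on both arrays. After normalization 8 member probes were below 0 and 4 above, while 49.1% of all detected probes were below 0.

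Eln encodes tropoelastin, the extensible core of the fibre. Its probe, ILMN_2697304, read 331.0 in WT and 289.6 in KO and was detected on both arrays. The normalized levels were 7.87 and 7.73 log2 units. KO was thus 1.10-fold lower, the lowest ratio of the set at -0.14, and 56.8% of all detected genes differed by as much or more.

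Of the fibrillins, which form the microfibril backbone, only Fbn2 had a probe, ILMN_1255033. It read 113.8 in WT and 119.7 in KO, close to the array medians of 112.4 and 115.7. The detection p was 0.0376 in WT and 0.0188 in KO, so the probe has only an upper bound on both arrays and no ratio is given.

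The fibulins are calcium-binding glycoproteins with repeated EGF-like modules that link elastin, fibrillin and basement membrane. Fbln1 had 3 probes. The brightest, ILMN_2870672, read 2562.3 in WT and 2423.4 in KO, and its ratio was 0.09 after quantile normalization and -0.06 with median scaling. The second, ILMN_2728985, read 1549.2 and 1154.8, with a ratio of -0.26, or 1.20-fold lower in KO. These well-detected probes lay on opposite sides of 0 and 0.35 log2 units apart. Such a gap or a wider one was seen in 23.1% of the 1791 genes with a pair of probes. The third Fbln1 probe, ILMN_2602770, read 127.4 in WT and 114.3 in KO and was detected in WT alone, with a detection p of 0.00627 against 0.0602. The annotation gives all 3 probes the same transcript record, and their positions along the transcript were not analysed here.

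Fbln2, whose product is found in elastic fibres and basement membranes, also had 3 probes. The brightest, ILMN_1245307, read 1415.0 in WT and 1281.2 in KO, with a ratio of 0.04 after quantile normalization and -0.14 with median scaling. Probe ILMN_3132949, assigned to another transcript record of the gene, read 150.4 and 140.9, with a ratio of -0.22. The remaining probe, ILMN_2626153, read 127.4 and 112.8 and was detected in WT alone. The pair of probes detected on both arrays lay 0.26 log2 units apart, a gap reached by 37.7% of genes.

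The dim probes of Fbln1 and Fbln2 that were detected in WT alone had the widest measured ratios of the set, at -0.63 and -0.70. These were the 2 member probes of 12 past 1.5-fold, against 6.29% of all detected probes in either direction, 3.28% in the higher and 3.01% in the lower. Neither was past 1.5-fold in the authors' normalized values, at -0.19 and -0.21, and no member probe passed 2-fold, against 0.639% of all detected probes. A probe detected on 1 array only is not measured on the other, and the size of these ratios depends on the background step, so no lower bound is given for this or any other such probe. On the whole array 368 probes were detected in WT alone, and 35.3% of them had a measured ratio of 1.5-fold or more in the lower direction. None of the 10 member probes detected on both arrays reached 1.5-fold, where 3.84% of all such probes did.

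Fbln5, which carries tropoelastin to microfibrils and is required for elastic fibre assembly in mice, had 1 probe, ILMN_2681796. It read 91.7 in WT and 101.4 in KO, below the array medians, with a detection p of 0.949 and 0.638. Its level could not be told from background on either array, so no ratio is given.

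The microfibril-associated proteins bind fibrillin and tropoelastin and, in the case of MAGP-1, encoded by Mfap2, active TGF-beta as well. Mfap2 had 3 probes, all detected on both arrays. The brightest, ILMN_2981542, read 2040.7 in WT and 1672.9 in KO, with a ratio of -0.10. Probe ILMN_2981545 read 586.1 and 563.8, with a ratio of 0.09, and probe ILMN_1240458 read 516.0 and 467.5, with a ratio of -0.03. All 3 ratios of Mfap2 were smaller in size than the probe SD of 0.22. With median scaling all 3 were below 0, the brightest at -0.28.

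Mfap4 encodes a fibrinogen-related protein that binds elastin and fibrillin. Its probe, ILMN_2633350, read 2034.2 in WT and 1713.2 in KO. After normalization the levels were 10.83 and 10.77 log2 units, a ratio of -0.06, and 78.8% of all detected genes differed by as much or more. Mfap5, which encodes MAGP-2, a microfibril protein that binds integrins through an RGD sequence, had probe ILMN_1225835. It read 121.0 in WT and 119.7 in KO. Its detection p was 0.01003 in WT, just outside the limit, and 0.0188 in KO, so Mfap5 was counted as not detected.

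Lox encodes lysyl oxidase, the copper enzyme that oxidizes lysines of tropoelastin and collagen so that they cross-link. Its probe, ILMN_2997494, read 1376.1 in WT and 1492.9 in KO. After normalization the levels were 10.23 and 10.55 log2 units, and KO was 1.25-fold higher, the highest ratio of the set at 0.32. This exceeds the SD of 0.22 per probe, but with median scaling Lox was at 0.14, under that SD. There Eln, Mfap2 and Mfap4 were at -0.27, -0.28 and -0.24, past it in size, with all genes at a median of -0.13. After quantile normalization 11.6% of all detected genes had a ratio as high as that of Lox or higher. Among the 1807 genes with a mean level above 9.5, where ratios spread less, 7.86% differed as much in either direction, and the central 95% of these genes lay between -0.38 and 0.36. Lox therefore lay inside the range of most genes of its brightness, and it rests on 1 probe.

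**Figure D2:**
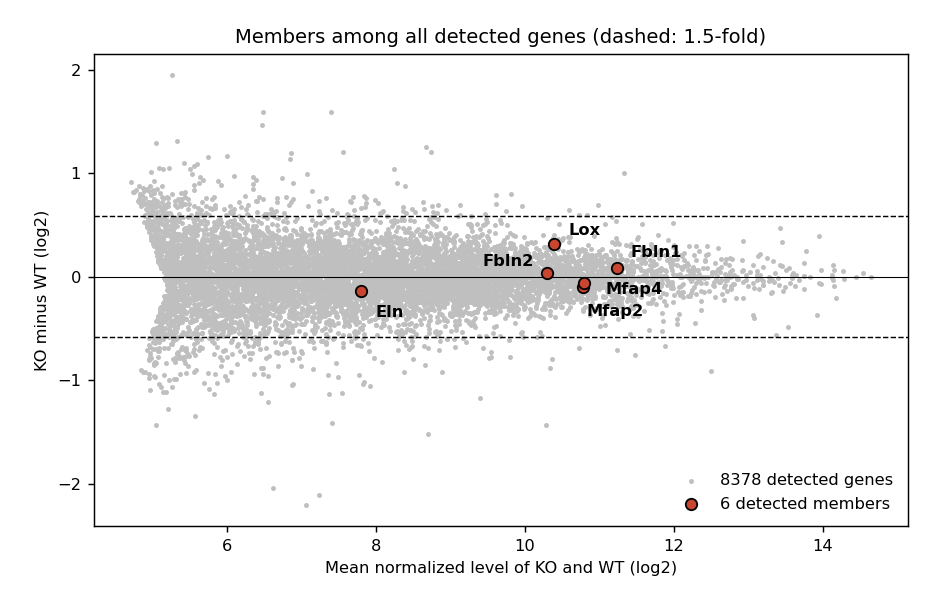
Ratio of KO to WT (log2, vertical axis) against the mean normalized level of both arrays (log2, horizontal axis) for 8378 detected genes (grey) and the 6 detected members (red), 1 point per gene, with dashed lines at 1.5-fold. All 6 members lie between the dashed lines, from -0.14 for Eln to 0.32 for Lox.

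Lysyl oxidase belongs to a family whose members share the catalytic domain, and LOXL1 is the one most closely tied to elastin renewal. Loxl1 read 1901.5 in WT and 1338.5 in KO, with a ratio of -0.35, or 1.28-fold lower in KO. Lox and Loxl1 thus lay on opposite sides of 0, and their ratios differed by 0.67 log2 units. The gap was 0.63 in the authors' normalized values and 0.66 with median scaling. Scaling between the arrays largely cancels in such a gap, so its steadiness is no support for it. Loxl1, like Lox, lay inside the central 95% of genes with a mean level above 9.5, from -0.38 to 0.36. The gap has no replicate check and was not tested. Loxl2 read 185.3 and 206.9, with a ratio of 0.37, Loxl4 was dim with a ratio of 0.23, and Loxl3 was not detected.

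The wider elastic fibre pathway was described by 9 further gene lists, which together held 69 genes. Of these 58 were on the array and 45 were detected, 23 with a ratio above 0 and 21 below, and their median was 0.03 log2 units. The median size of their ratios was 0.21 log2 units, against 0.17 over all detected genes, without regard to brightness. Of the 45, 1 reached 1.5-fold in the higher direction and none in the lower, against 3.02% and 2.92% of all detected genes. With so few genes this count is not a result about the lists. The gene past the limit was Ltbp2, whose product binds fibrillin-1 and fibulin-5. Ltbp2 read 106.9 in WT and 125.4 in KO with a measured ratio of 0.65, but it was detected in KO alone, and the ratio was 0.19 in the authors' normalized values. Of the other latent TGF-beta binding protein genes, Ltbp1 was also detected in KO alone, at 120.5 in WT and 126.7 in KO. Ltbp3 was at -0.01, and the brightest probe of Ltbp4 at -0.15, while its second probe was at 0.16 and its dimmest at -0.09.

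Other partners of the fibre gave small ratios in both directions. Among fibulin relatives, Fbln7 read 133.2 in WT and 121.7 in KO and was detected in WT alone, and Efemp1 was not detected. Of the emilins and multimerins, glycoproteins found at the elastin-microfibril interface and on vessel walls, the endothelial gene Mmrn2 had a ratio of -0.42. Emilin1 and Emilin2 were at -0.03 and 0.03. Of the ADAMTS and ADAMTS-like genes, several of which act on fibrillin microfibrils, 4 of 10 were detected and none was above 0. The lowest was Thsd4, which promotes microfibril assembly, at -0.32, followed by Adamts19 at -0.25, and the median was -0.13.

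Genes for assembly, folding and activation had 8 of 12 detected members above 0 and a median of 0.10. The proteoglycan gene Dcn was the highest at 0.52, from 3731.6 in WT and 4659.7 in KO, and its other detected probe was at 0.22. The ratio of 0.52 lay outside the central 95% of genes with a mean level above 9.5, from -0.38 to 0.36. Bmp1 and Pcolce, which encode the protease that activates lysyl oxidase and a protein that enhances its action on procollagen, were at 0.22 and 0.27. The other detected probes of Bmp1 were at -0.01, 0.10 and, for the dimmest, 0.30. Atp7a, which loads copper onto lysyl oxidase, was at -0.37 and Vcan, whose product binds fibrillin, at -0.32.

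Of the integrins that bind microfibrils or elastin, 5 of the 8 on the array were detected, with a median of 0.05. Itgb6, the epithelial integrin subunit that activates latent TGF-beta, was the highest at 0.40, although its other detected probes were both at -0.06. Itgb5 was at -0.34. The TGF-beta genes had a median of 0.08 over 6, from Tgfbr3 at -0.51 to Tgfb2 at 0.43. The other detected probe of Tgfbr3 was at -0.64, past 1.5-fold, but at -0.22 in the authors' normalized values. Tgfbr1 was at -0.21, while its other detected probe read 93.1 in WT and 125.1 in KO and was detected in KO alone.

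**Figure D3:**
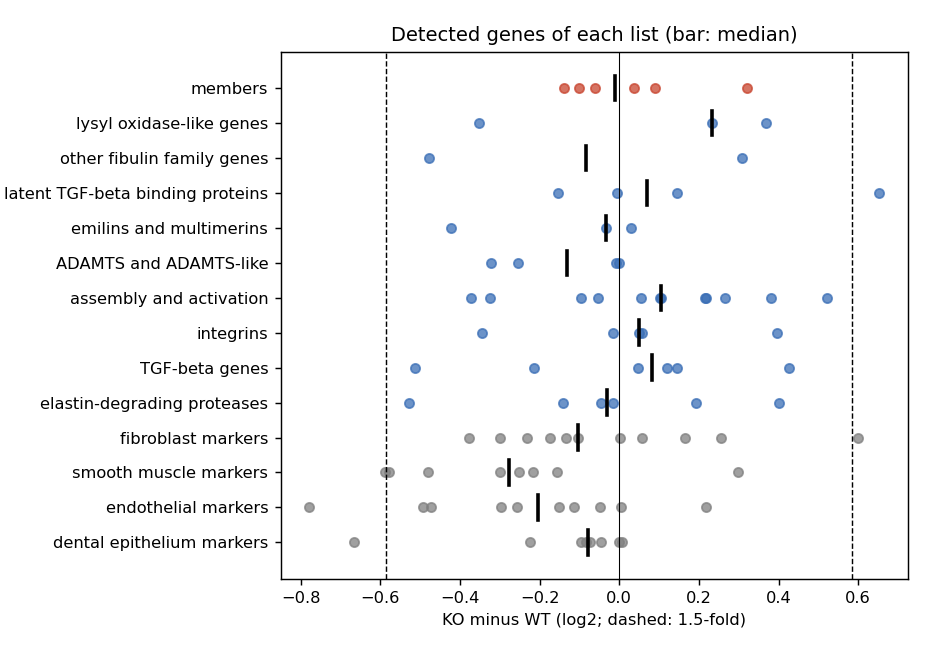
Ratio of KO to WT (log2, horizontal axis) of each detected gene (points) in the member set (red), the 9 related lists (blue) and marker lists (grey), with black bars at list medians and dashed lines at 1.5-fold. The members run from -0.14 to 0.32, a range that overlaps those of the smooth muscle and endothelial markers, whose medians are -0.28 and -0.20.

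Of the markers of cells that make or hold elastic fibres, those of smooth muscle and endothelium lay mostly below 0. Fibroblast markers were split nearly evenly, as were all detected genes, with 4165 of 8378 below 0. The sums given here are not normalized, and before normalization 65.3% of all detected probes read lower on the KO array. In whole tissue, fewer cells of a type and less RNA per cell cannot be told apart. Smooth muscle and pericyte markers were below 0 in 7 of 8 detected genes, with a median of -0.28, and their summed non-normalized intensity was 20944.2 in WT and 13734.3 in KO. Most of these sums came from Acta2, which read 14813.3 and 9734.4. The contractile genes Myh11, Tagln and Acta2 were at -0.59, -0.58 and -0.48, while Cnn1 and Lmod1 were not detected. Endothelial markers were below 0 in 8 of 10, with a median of -0.20, led by Vwf at -0.78, and summed to 5591.6 in WT and 4239.6 in KO. Fibroblast and mesenchyme markers were below 0 in 6 of 11, with a median of -0.10, from Col5a1 at -0.38 to Vim at 0.60, and summed to 35998.2 in WT and 31100.6 in KO. Dental epithelial markers were below 0 in 6 of 8, with a median of -0.08 and Shh the lowest at -0.67. Markers of odontoblasts, osteoblasts and skeletal muscle had medians of 0.14, 0.04 and 0.23. The odontoblast median rests on 3 genes, as Dspp and Dmp1 were not detected. Skeletal muscle markers ran from Actn3 at -0.60 to Mb at 0.77. Of the chondrocyte markers Col2a1 and Matn1 were not detected. The immediate-early genes, which respond fast to handling and stress, were below 0 in 9 of 10, with a median of -0.58. The pools also differed in sex-linked transcripts. Xist, which is transcribed from the inactive X chromosome of female cells, read 837.2 in WT and 321.9 in KO, a ratio of -1.52, and its other probe had a ratio of -1.10. The Y-linked gene Eif2s3y read 95.3 in WT and 160.6 in KO and was detected in KO alone. The labels do not give the sex of the mice. The part of these cell types and genes in the members' ratios was not tested.

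No member reached 1.5-fold in any of the 9 processing settings run, in which 0.704% to 7.03% of all genes did. Lox was the highest member in each, from 0.14 with median scaling to 0.32. The signs of the other members were less firm. Median scaling moved the median of all detected genes to -0.13, and under it Fbln1 and Fbln2 turned to -0.06 and -0.14, which left 5 of 6 members below 0. Relative to that median of all genes they were at 0.07 and -0.01. When the mean over the detected probes of a gene replaced the brightest probe, Fbln1 was at -0.27 and Fbln2 at -0.29. With the mean over only those probes detected on both arrays, an alternative chosen after seeing the data, both were at -0.09, so their signs turned without the probes detected in WT alone.

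**Figure D4:**
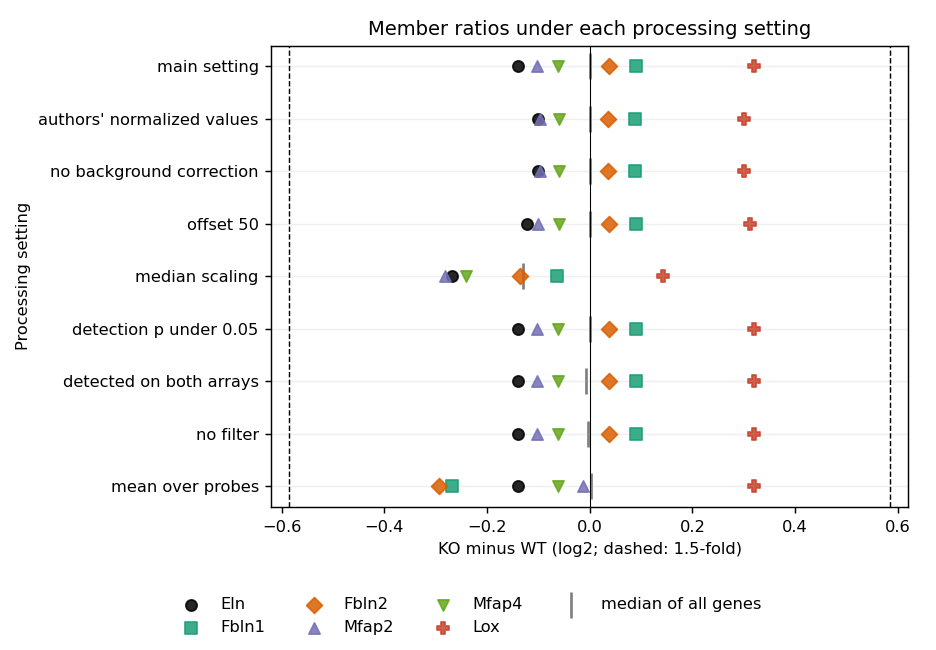
Ratio of KO to WT (log2, horizontal axis) of the 6 detected members (coloured symbols) under the main setting and 8 processing alternatives (vertical axis), with grey ticks at the median of all genes and dashed lines at 1.5-fold. No symbol passes a dashed line, Lox is the rightmost symbol in each row, and Fbln1 and Fbln2 change sides with median scaling and with the mean over probes.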

How the data were processed

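The authors hybridized biotin-labelled RNA to Illumina MouseRef-8 v2 arrays and read them in GenomeStudio, per the labels. They deposited a linear intensity per probe, neither background-subtracted nor normalized, with a detection p-value per probe that the authors' software derived from negative controls. A further deposited table holds intensity values that the authors normalized between the arrays. The detection p-value columns name no sample and each was read as that of the intensity to its left. The genome build and software version are not given in the sources used here.

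Non-normalized intensities were processed with neqc of limma 3.58.1 in R 4.3.3, which estimates background from those p-values. An offset of 16 was added before quantile normalization and the log2 step. These steps act most on dim probes. Platform symbols were updated through Entrez IDs to a RefSeq table of GRCm38.p6, and 1719 probes had no symbol. With 1 sample per genotype no test was run. The steps were tested on simulated data. All members and Med1 were named. The rule for each related list was to name up to 3 genes with the largest ratios, but it was not kept throughout. Ctsa, at 0.38, and Hmcn1 were among those left out, while genes with smaller ratios in the same list as Ctsa, such as Bmp1, were named. Any gene named outside the rule was chosen after its value was seen. The members, lists and naming rule were chosen with earlier results of these data known. Alternatives were the authors' normalized values, no background correction, an offset of 50, median scaling, other detection limits, no filter, the mean over probes and a 2-fold limit. No probe, promoter or protein sequences were printed, since no result turned on one.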

Additional observations from a re-analysis of the deposited data

How the results depend on the processing

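The number of all genes at 1.5-fold or more was 498. It was 59 in the authors' normalized values, 59 without background correction and 132 with an offset of 50, settings that keep or add a constant signal and so draw dim probes towards 0. It was 296 among genes detected on both arrays and 52 at 2-fold. The share of these genes that was higher on the KO array was 50.8% in the main setting and 39.0% in the authors' values, 39.0% without background correction and 29.2% with median scaling. The count of members at 1.5-fold was 0 in every setting run, no filter included, where 0.704% to 7.03% of all genes passed. It was also 0 at 2-fold, which 0.621% of all genes passed. With so few members these counts are not a result about the set. The members' median moved from -0.01 to -0.19 with median scaling and was -0.06 relative to the median of all genes there, an alternative chosen after seeing the data. The median of the related lists moved from 0.03 to -0.093 with median scaling and was 0.04 relative to that median. Of 60 member ratios under alternatives, 24 were identical to the main value because the alternative left the probe and its normalization as they were. Of the other 36, 34 moved by less than the SD between probes, and the exceptions were Fbln1 and Fbln2 with the mean over probes. That SD, 0.22, is larger than the main ratio of every member but Lox. A ratio could thus change sign and still fall under it, as those of Fbln1 and Fbln2 did with median scaling. Of 71 medians of single related lists under alternatives, 21 were identical to the main value, 41 moved by less than the probe SD scaled to the size of the list and 9 by more. Signal over background limits the dim probes, Fbn2, Fbln5 and Mfap5 among them. No paired analysis was possible because each genotype had 1 column of values, and leaving out a replicate could not be done with 1 sample per genotype.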

Other observations

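Proteases that can degrade elastin formed 1 of the 9 related lists. Of 9 genes 6 were detected, 2 with a ratio above 0 and 4 below, with a median of -0.03 log2 units. The matrix metalloproteinase genes Mmp2 and Mmp9 were at -0.05 and -0.02, and Ctsk, the collagen- and elastin-degrading cathepsin of osteoclasts, was at -0.14. Ctsl read 124.3 in WT and 114.4 in KO and was detected in WT alone. The members above 0 were the neutrophil granule genes Elane, which encodes neutrophil elastase, and Prtn3. Elane read 120.9 in WT and 134.4 in KO and was detected in KO alone, and Prtn3 was at 0.19. Neutrophil markers, a list that also holds Elane, were above 0 in 10 of 10 genes, with a median of 0.998, and their summed non-normalized intensity was 3832.3 in WT and 6406.4 in KO. Their part in these ratios was not tested. Mmp12, Mmp7 and Ctss were not detected on either array.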
